A study of Mus musculus with 4 samples.

Results

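The replication-dependent histone gene clusters of the mouse were examined for the time at which their DNA is copied in S phase. The members are the array's genomic positions whose midpoint on genome build mm9 lies on chromosome 13 from 21700001 up to the base before 23900001, the Hist1 cluster, or on chromosome 3 within 100 kb of 96.05 Mb, the Hist2 cluster. Of 193 probes in these intervals, 192 were usable on all 4 arrays, 174 in Hist1 and 18 in Hist2, of 169660 usable probes in all. The 1 Mb on either side of each cluster, called flanks below, served as comparison, with 87 and 94 probes beside Hist1 and 105 and 84 beside Hist2. The intervals were set by position and not by any measured value.

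The cells were fibroblasts cultured from mouse embryos (MEF), a connective tissue cell, and each group had 1 array of 2 colours. The groups were a control, a KO in which the floxed SUV4-20H1 allele was deleted, a non-induced suv4-20h mutant and an induced suv4-20h mutant. All were grown in 3% oxygen and 5% CO2 and exposed to the nucleotide analogue BrdU (50 µM) for 1 hour. Then 80000 cells were sorted by DNA content into fractions of early and late S phase, whose new DNA was recovered with antibodies and amplified. The labels name 4-hydroxytamoxifen (1 mM for 24 hours) as the agent of the deletion in a text shared by all 4 samples, without saying which cells received it, and give no means of induction for the induced mutant. They number the cell line 362.2 in some fields and 364.2 in others, and they name no promoter for the recombinase. Timing is log2 of early over late signal, centred on the median autosomal probe of each array, so a higher value means earlier replication and 0 is the median probe.

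Because each group had 1 array, nothing here measures how cultures vary, and no group was tested against another. Standard errors (SE) and standard deviations (SD) below are over probes within an array and cover probe noise and variation along the DNA, not the spread between cultures. The first pair of arrays (control, KO) shared 1 slide, and the second pair (non-induced, induced) another, so that slide and cells cannot be told apart where a value of one pair is set beside the other. Between 88.6 and 94.7% of spots per array exceeded background clearly in both, and the median SD between repeated spots of a probe was 0.12 to 0.16. Of 122 probes of the Y chromosome, both channels exceeded background clearly for 106 with KO, 50 with control, 53 with non-induced and 41 with induced DNA. The part of this difference in the values below was not tested. DNA was hybridised, so neither expression nor any cell type marker was measured.

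Replication-dependent histone genes supply the core histones H2A, H2B, H3 and H4 and the linker histone H1 that package newly copied DNA. They are transcribed mainly in S phase, their messages end in a stem-loop in place of a poly(A) tail, and they lie in clusters that gather at a nuclear structure called the histone locus body. Suv4-20h enzymes methylate a lysine in the tail of histone H4, a protein that these clusters encode in many copies. In general, gene-rich and active chromatin replicates early, and gene-poor or silent chromatin late.

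The scanner files give probe positions and no gene names, and the gene table used here is RefSeq's for GRCm38, another build, so it was used for names and for the order of genes only. In that order, chromosome 13 holds 54 protein-coding histone genes in a pair of runs. The first run has 23 genes, with 1 H1 gene (H1f5, formerly Hist1h1b), 7 for H2A, 8 for H2B (counting H4bc24, formerly Hist1h2br), 2 for H3 and 5 for H4, and 3 other genes among them, Zfp184, Pom121l2 and Prss16. The second run has 31 genes, with 5 for H1, 6 for H2A, 7 for H2B, 7 for H3 and 6 for H4, and it includes Hist1h1a (now H1f1) and Hist1h4a (now H4c1). Between the runs stand 41 genes, of which 36 are Vmn1r genes, receptors for pheromones in the vomeronasal organ, and the other 5 include Abt1, Btn1a1 and Btn2a2. Olfactory receptor genes precede the first run, and Slc17a transporter genes and Hfe lie inside the second. The Hist2 run on chromosome 3 has 10 histone genes, 4 for H2A, 2 for H2B, 3 for H3 and 1 for H4, among them Hist2h2be (now H2bc21).

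Promoters of the named histone genes are shown because these genes belong to the clusters, and because promoters of this family share short motifs. No probe was matched to a gene, so whether any probe samples these genes is not known. RefSeq's promoter table (GRCm38) held 59 of the 64 cluster genes and 3 of the 4 genes named above, and Hist2h2be was not among them. Hist2h2bb (now H2bc18), another H2B gene of the Hist2 run, is shown in its place. The 250 bases before each start are given 5′ to 3′, and capitals mark the TATA box TATAAA, the CCAAT box CCAAT and the H1 box AAACACA on either strand. These coordinates are not on the build of the probes.
Hist1h1a (H1f1, GRCm38, chr13:23763418-23763667, plus strand): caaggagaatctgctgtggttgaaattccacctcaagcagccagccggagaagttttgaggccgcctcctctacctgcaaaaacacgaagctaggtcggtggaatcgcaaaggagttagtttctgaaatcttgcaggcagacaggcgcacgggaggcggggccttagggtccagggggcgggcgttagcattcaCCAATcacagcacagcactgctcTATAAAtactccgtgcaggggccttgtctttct
Hist1h4a (H4c1, GRCm38, chr13:23761250-23761499, minus strand): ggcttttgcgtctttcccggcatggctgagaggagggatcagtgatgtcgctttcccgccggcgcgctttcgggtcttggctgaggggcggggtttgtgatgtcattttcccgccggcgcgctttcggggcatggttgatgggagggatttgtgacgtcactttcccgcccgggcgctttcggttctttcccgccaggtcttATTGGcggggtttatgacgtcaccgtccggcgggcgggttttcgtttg
Hist1h1b (H1f5, GRCm38, chr13:21780626-21780875, minus strand): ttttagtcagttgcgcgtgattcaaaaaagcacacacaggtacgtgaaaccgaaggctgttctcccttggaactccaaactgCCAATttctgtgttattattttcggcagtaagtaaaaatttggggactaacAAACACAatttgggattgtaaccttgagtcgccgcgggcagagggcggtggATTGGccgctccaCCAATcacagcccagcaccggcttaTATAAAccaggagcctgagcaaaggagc
Hist2h2bb (H2bc18, GRCm38, chr3:96269450-96269699, plus strand): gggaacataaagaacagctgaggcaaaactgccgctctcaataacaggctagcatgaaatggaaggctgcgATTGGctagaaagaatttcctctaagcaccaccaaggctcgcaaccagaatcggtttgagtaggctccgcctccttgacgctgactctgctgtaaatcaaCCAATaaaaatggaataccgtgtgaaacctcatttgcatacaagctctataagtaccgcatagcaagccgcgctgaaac
The promoters of both H1 genes hold CCAAT and TATAAA, and that of Hist1h1b also holds AAACACA. Those of Hist1h4a and Hist2h2bb hold CCAAT on one strand or both, and neither other motif in this window. Over both strands, TATAAA occurred in 28 of the 60 promoter entries of the clusters (46.7%) and in 12.4% of all 32851 entries, CCAAT in 50 of 60 (83.3%) and in 33.8%, and AAACACA in 9 of 60 (15.0%) and in 6.25%. These are matches of letters and say nothing about bound factors or about timing.

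Hist1 replicated late on all 4 arrays, while Hist2 lay in early replicating DNA on 3 of the 4 arrays and near the median probe on the KO array. Mean timing of Hist1 was -0.86 ± 0.04 (control, SE over 174 probes), -1.23 ± 0.05 (KO), -1.06 ± 0.04 (non-induced) and -1.43 ± 0.06 (induced). Mean timing of Hist2 was 0.35 ± 0.11 (control, SE over 18 probes), -0.15 ± 0.09 (KO), 0.79 ± 0.13 (non-induced) and 0.55 ± 0.10 (induced). The clusters thus differed in replication time on every array, by more than their SE.

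Within Hist1, 159 of 174 probes (91.4%) were below 0 on all 4 arrays, against 36.3% of all probes. Another 9 probes were above 0 on 1 array, 4 were above 0 on 2 arrays, and 2 were above 0 on all 4. In non-overlapping windows of 200 kb, all 11 Hist1 windows were later than the genome's median window on every array. Those windows ranged from -1.18 to -0.54 (control), from -1.57 to -0.79 (KO), from -1.32 to -0.72 (non-induced) and from -1.95 to -0.96 (induced). Of the 11, those below the 10th percentile of all 11973 windows numbered 4, 3, 5 and 4 in the order control, KO, non-induced, induced. Hist1 was thus late without standing among the very latest DNA as a whole: its mean ranked above 14.1%, 17.2%, 14.4% and 17.8% of windows in that order.

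The interval was split at 22200001 and 23600001, round mm9 positions taken from general knowledge of the locus, into a section around the first histone run, the section between, and a section around the second run. The genes themselves were not placed on mm9, so the sections are approximate, and a run may cross a border. The first section had timing of -0.87 ± 0.06 (control, SE over 43 probes), -1.29 ± 0.11 (KO), -1.09 ± 0.08 (non-induced) and -1.40 ± 0.11 (induced). The section between, with the pheromone receptor genes, had -0.89 ± 0.05 (SE over 100 probes), -1.25 ± 0.07, -1.08 ± 0.05 and -1.56 ± 0.07 in the same order. The second section had -0.77 ± 0.09 (SE over 31 probes), -1.09 ± 0.14, -0.95 ± 0.09 and -1.04 ± 0.12.

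All 3 sections were below 0 on every array, the sections around the histone runs as well as the one with the receptor genes that part them. The second section was the least late on each array, and its gap to the section between was widest on the induced array, at -1.04 against -1.56.

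**Figure D1:**
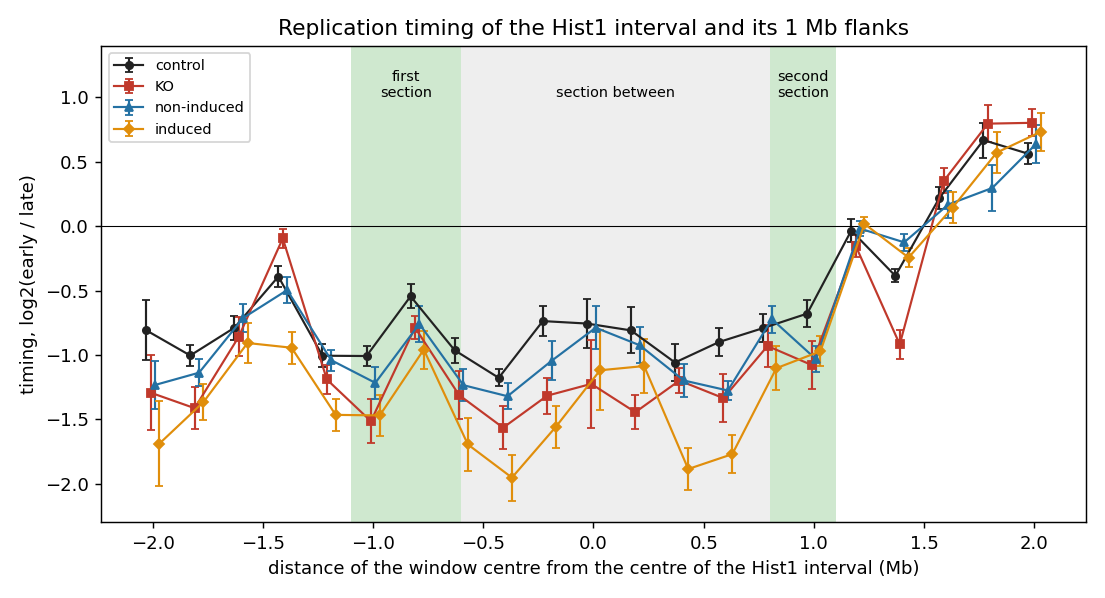
Timing (log2 of early over late signal) of 200 kb windows across the Hist1 interval and its 1 Mb flanks, by distance of the window from the centre of the interval in Mb, for the 4 arrays; points are means over probes, bars are SE over probes, green bands are the first and second section and the grey band the section between. All 11 windows inside the bands lie below 0 on every array, and timing rises towards the right flank.

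A few probes stood out inside the late cluster. The earliest in the second section, at chr13:23639706-23639765, had 0.38 (control), 1.01 (KO), 0.75 (non-induced) and 1.25 (induced). It was early on every array. The earliest in the section between, at chr13:22742580-22742635, had 0.32, 1.00, 0.15 and 0.64 in the same order, also above 0 on every array. The earliest in the first section, at chr13:22017403-22017462, had -0.34 (control), -0.10 (KO), 0.47 (non-induced) and 0.32 (induced), so that it was early on only the second slide. The latest probes were at chr13:21819991-21820049 (-1.28, -1.74, -1.96 and -2.91), chr13:22528253-22528312 (-1.07, -1.92, -3.14 and -2.80) and chr13:23706333-23706392 (-1.27, -1.76, -1.82 and -2.11), in the 3 sections in order. The one of the section between was not well above background on all arrays, so that its values are uncertain. Copies of histone and receptor genes are close in sequence, and whether a probe also binds DNA from another copy was not tested.

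The 1 Mb flanks of Hist1 were unlike each other. The left flank, on the side of the olfactory receptor genes, was late as well, at -0.82 ± 0.05 (control, SE over 87 probes), -0.97 ± 0.08 (KO), -0.91 ± 0.05 (non-induced) and -1.24 ± 0.07 (induced). The right flank was near or above the median probe, at 0.16 ± 0.06 (SE over 94 probes), 0.11 ± 0.08, 0.18 ± 0.06 and 0.21 ± 0.06. Hist1 was lower than the right flank by 1.02 (-1.02 ± 0.07) in control, and the difference was -1.34 ± 0.10 in KO, -1.24 ± 0.07 (non-induced) and -1.64 ± 0.08 (induced). Against the left flank the difference was -0.04 ± 0.06 (control), -0.26 ± 0.10 (KO), -0.15 ± 0.07 (non-induced) and -0.19 ± 0.09 (induced), within 3 SE on each array. This depended on the width of the flank. With 0.5 Mb the difference was -0.16 ± 0.07, -0.60 ± 0.11, -0.34 ± 0.08 and -0.34 ± 0.11 in the same order, and with 2 Mb it was 0.03 ± 0.05, -0.48 ± 0.08, -0.21 ± 0.05 and -0.37 ± 0.08, beyond 3 SE on all arrays but control. With normexp background correction it was 0.06 in induced cells.

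Timing rose at the right border on all 4 arrays. The last window inside Hist1, starting at 23700001, had -0.68 (control), -1.08 (KO), -1.03 (non-induced) and -0.97 (induced). The next, starting at 23900001, had -0.03, -0.15, -0.02 and 0.02 in the same order. The window after it fell back to -0.92 in KO and -0.39 in control, against -0.13 in non-induced and -0.24 in induced cells, and from 24500001 to 24700000 timing was 0.67, 0.80, 0.30 and 0.57. Counted as neighbouring windows below 0, the late domain that holds Hist1 ran from 17100001 to 24300000 (7.2 Mb) in control and from 19900001 to 24300000 (4.4 Mb) in KO. It ran from 16900001 to 24300000 (7.4 Mb) in non-induced and from 16900001 to the end of Hist1 (7.0 Mb) in induced cells. The induced run ended there on a window of 0.02 ± 0.06, within its SE of 0, and the window after that was again below 0.

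The first comparison asks how timing differs in KO cells from control cells. Hist1 timing was lower in KO, with a mean difference of -0.37 ± 0.04 (SE over 174 probes) and with 142 of 174 probes below control, against 56.49% of all probes. By section the difference was -0.42 ± 0.08 in the first, -0.36 ± 0.05 in the section between and -0.33 ± 0.10 in the second. To be called, a window had to differ by 3 SE over probes and by 0.25 of the spread of the reference array, its 90th minus its 10th percentile over windows (0.45 here). By this rule 3 of the 11 Hist1 windows were later in KO, those starting at 21700001 (-0.51 ± 0.14), 22500001 (-0.58 ± 0.08) and 22900001 (-0.64 ± 0.17), and 0 were earlier, against 22.21% later and 8.135% earlier among all windows.

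Hist1 thus moved as late DNA did elsewhere on this pair of arrays. Its 11 window differences ranged from -0.64 to -0.14 with a median of -0.40, while all windows had a median of -0.16 and 64.77% of them were below 0. Among 1153 windows whose mean timing on the non-induced and induced arrays was within 0.1 of that of Hist1, the median KO minus control difference was -0.35, and Hist1 stood at their percentile 47.4. The difference depended on the scale: quantile normalization gave 0.04 ± 0.04, and removing a linear trend against timing gave 0.02 ± 0.04. Both are within 1 SE of 0, so the difference was lost with these settings rather than turned. By section, quantile normalization gave -0.02 in the first, 0.06 in the section between and 0.04 in the second. Scaling the arrays to one spread gave -0.13 for Hist1, with 0 of 11 windows called, against 1651 later and 755 earlier among all 11973 windows.

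Both channels were lower on the KO array in Hist1. Relative to the autosomal median of each channel, mean early signal was -0.17 ± 0.09 (control, SE) and -0.81 ± 0.11 (KO), a difference over the same probes of -0.64 ± 0.04. Mean late signal was 0.67 ± 0.09 (control) and 0.35 ± 0.09 (KO), a difference of -0.31 ± 0.03. The lower ratio in KO therefore came with less early signal, and late signal was not raised.

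Hist2 timing was lower in KO than in control by a mean of -0.50 ± 0.09 (SE over 18 probes), which met the size and SE rule as later. Control values of the 18 probes had a lowest of -0.29, a median of 0.31 and a highest of 1.39, and KO values had -0.83, -0.20 and 0.47. The probe values of both arrays overlapped, but 17 of 18 probes were lower in KO, against 56.49% of all probes. KO was the lowest of the 4 arrays in 13 of 18 probes, against 29.0% of all probes. The exception to the direction was the last probe inside the interval, at chr3:96139549-96139608, with -0.07 (control) and 0.11 (KO).

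For Hist2, windows of like timing had a median on the other side of 0. Among 927 windows within 0.1 of the mean timing of Hist2 on the non-induced and induced arrays, the median KO minus control difference was 0.06, with a 10th percentile of -0.33, and Hist2 stood at percentile 3.88. Its place among all windows, by difference, was percentile 24.1. The call as later was lost with quantile normalization (-0.52, against a threshold of 0.56) and with arrays centred on the median autosomal window (-0.30). The difference was also under the size of 0.45 over the 17 probes well above background on all arrays (-0.43), so that 1 dim probe carried it past that size. When those well measured probes also set the centre of each array and the threshold (0.44), it was -0.50 and was called. It was -0.43 within 200 kb of the centre and -0.45, just short of the size, with the intensity trend removed.

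The windows beside Hist2 were early. Window borders do not match those of the Hist2 interval. On the KO array the window from 95900001 to 96100000 had -0.17, while the windows before and after it had 0.52 and 0.61. On control these had 0.71, 0.47 and 0.54, on non-induced 0.87, 0.93 and 0.94, and on induced cells 1.17, 0.76 and 0.78. On the KO array this window alone made up the stretch below 0, the median probe. It still stood at percentile 54.3 of all windows of that array, above the median window of -0.38. On the other arrays neighbouring windows above 0 joined Hist2 to an early domain of 2.8 Mb in control and 4.2 Mb in both non-induced and induced cells. Against both 1 Mb flanks, Hist2 was lower by 0.84 (-0.84 ± 0.10) in KO, and the difference was -0.28 ± 0.12 in control, -0.07 ± 0.14 (non-induced) and -0.45 ± 0.11 (induced). A difference below that of Hist2 was found in 9.91% of all windows in KO, 26.9% in control, 42.7% in non-induced and 22.9% in induced cells when each was set against its own 1 Mb surroundings. The comparisons ranked alike in this respect. For KO minus control, Hist2 minus flanks was -0.56, with 5.04% of windows lower. For induced minus non-induced it was -0.37, with 5.26% lower.

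The 9 probes within 50 kb of the Hist2 centre had a common direction. All 9 were lower in KO than in control, against 56.49% of all probes, but they are neighbours and not independent. Their differences were -0.73 to -0.04 with a mean of -0.50 ± 0.07, and their mean timing was 0.15 ± 0.11 (control) and -0.35 ± 0.11 (KO). The outer 9 probes of Hist2 had a like mean difference of -0.49 ± 0.17, with 8 lower in KO. The KO difference was thus not particular to the centre. The lowest value was at chr3:96048715-96048774, the probe nearest the centre, with -0.29 (control), -0.83 (KO), 0.95 (non-induced) and 0.51 (induced). The lowest KO minus control value of any Hist2 probe, -1.68 at chr3:95987696-95987754, was at the 1 probe not well above background on all arrays. Among the other 17 it was at chr3:96032415-96032474, with 0.03, -0.70, 0.82 and 0.30 in the same order. Control was itself lower near the centre than in the outer probes of Hist2, at 0.15 against 0.55, while non-induced cells had 0.88 against 0.70 and induced cells 0.54 against 0.56. KO had -0.35 against 0.06, so that both arrays of the first slide were lower at the centre. On the second slide the centre and the outer probes differed by less than the SE of the outer ones (0.25 and 0.20).

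**Figure D2:**
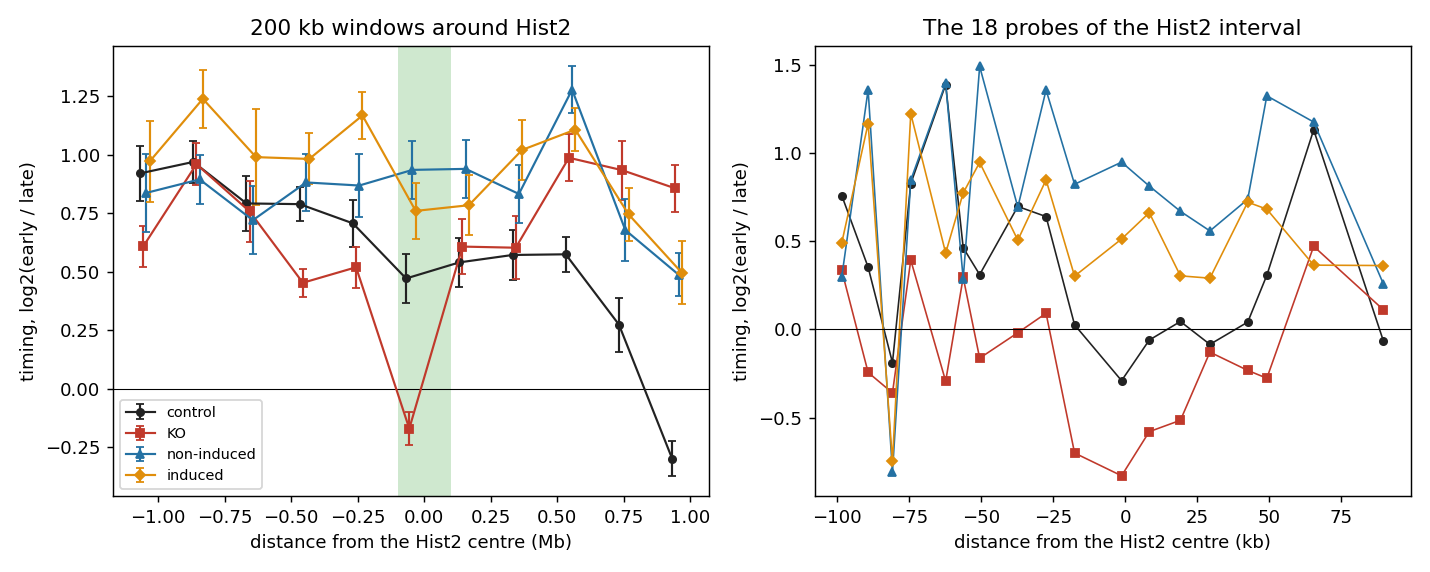
Left, timing (log2 of early over late signal) of 200 kb windows by distance from the Hist2 centre in Mb, with means and SE over probes and the Hist2 interval as a green band, whose borders the windows do not match; right, timing of each of the 18 probes of the interval by distance from the centre in kb, for the 4 arrays. The KO array alone has a window below 0 at the band, at -0.17, and each of its 9 central probes lies below the control value of that probe.

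The channels of Hist2 moved otherwise than those of Hist1. Mean early signal was 0.82 ± 0.33 (control, SE) and 0.81 ± 0.34 (KO), a difference over the same probes of -0.01 ± 0.07. Mean late signal was 0.45 ± 0.43 (control) and 0.89 ± 0.39 (KO), a difference of 0.44 ± 0.07. The lower ratio at Hist2 thus came with more late signal at a like early signal. The left flank shared the higher late signal, with a difference of 0.32 ± 0.05, while the right flank had -0.23 ± 0.05.

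The flanks of Hist2 moved in opposite directions in KO. The left flank had 0.85 ± 0.04 (control) and 0.60 ± 0.04 (KO), a difference of -0.24 ± 0.05 (SE over 105 probes). The right flank had 0.35 ± 0.05 (control) and 0.80 ± 0.06 (KO), a difference of 0.44 ± 0.06 (SE over 84 probes). Its highest difference was in the window starting at 96900001, with -0.30 (control), 0.86 (KO), 0.49 (non-induced) and 0.50 (induced), which was called earlier in KO. There control stood apart from the other arrays. At Hist2 KO was the lowest, but the other arrays were also spread, at 0.35 (control), 0.55 (induced) and 0.79 (non-induced) against -0.15 (KO).

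**Figure D3:**
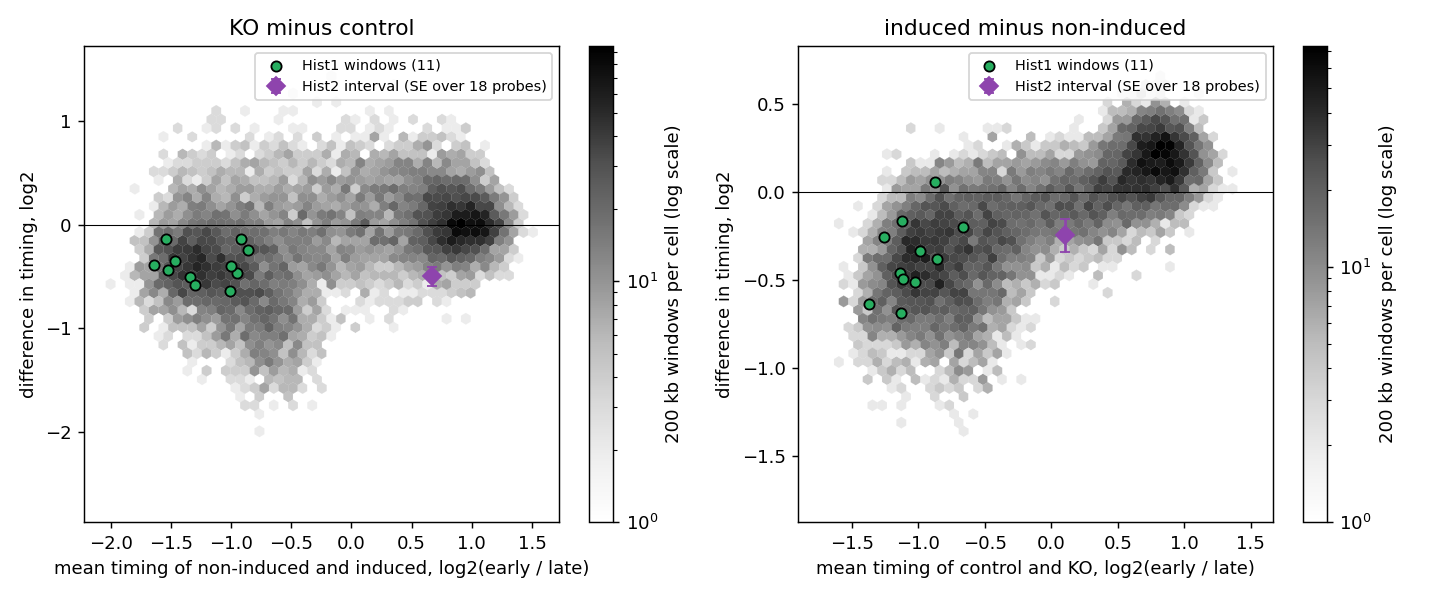
Difference in timing of 200 kb windows (log2; left, KO minus control; right, induced minus non-induced) against the mean timing of the pair of arrays not in that comparison; grey cells count all windows on a log scale, green points are the 11 Hist1 windows and the purple point is the Hist2 interval with its SE over 18 probes. The Hist1 windows lie within the cloud of late windows in both panels, and Hist2, at -0.50 on the left, lies at the lower edge of windows of its timing.

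The second comparison asks how timing differs in induced from non-induced mutant cells. Hist1 timing was lower in induced cells by a mean of -0.37 ± 0.04 (SE over 174 probes), with 138 of 174 probes lower, against 57.14% of all probes. The sections were unequal: the difference was -0.30 ± 0.06 in the first, -0.48 ± 0.05 in the section between and -0.08 ± 0.07 in the second. The section with the pheromone receptor genes thus had the lowest value, and the second histone section was within 2 SE of no difference. By the same rule (0.52 for this pair of arrays), 2 of the 11 windows were later, both in the section between, starting at 22300001 (-0.63 ± 0.13) and 23100001 (-0.69 ± 0.09), and 0 were earlier, against 11.67% later and 0.4176% earlier among all windows.

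Again the cluster as a whole moved as late DNA did. Its 11 windows ranged from -0.69 to 0.06 with a median of -0.38, all windows had a median of -0.13, and 64.07% of them were below 0. Among 1333 windows of like timing on the control and KO arrays the median difference was -0.40, and Hist1 stood at percentile 55.5. The second section stood at percentile 87.8 of 1405 windows of its timing, and the section between at percentile 38.2 of 1304. Here too the difference depended on the scale. Hist1 had -0.03 ± 0.03 after scaling to one spread, 0.06 ± 0.03 after quantile normalization and 0.10 ± 0.04 once a linear trend against timing was taken out. Each of these is within 3 SE of 0. After the first of these 0 of 11 windows were called, against 228 later and 1 earlier among all 11973 windows. The sections then had 0.03 in the first, -0.12 ± 0.05 in the section between and 0.17 in the second. The section between was below 0 in all 13 alternatives, but not always by more than its SE. It had -0.026 ± 0.044 with quantile normalization and -0.010 ± 0.052 with the linear trend taken out.

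Dim probes moved with the low value in the section between, and their part in it was not tested. There 72 of 100 probes were well above background on the induced array, against 92 on non-induced, 91 on KO and 96 on control, while in the second section 30 of 31 were so on the induced array. Over the 72 probes well above background on all 4 arrays the difference in the section between was -0.36. In Hist1 as a whole early signal differed by -0.23 ± 0.04 (SE) and late signal by 0.08 ± 0.03 between induced and non-induced cells. The lower ratio came mainly with less early signal, as in KO, but late signal was higher and not lower.

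**Figure D4:**
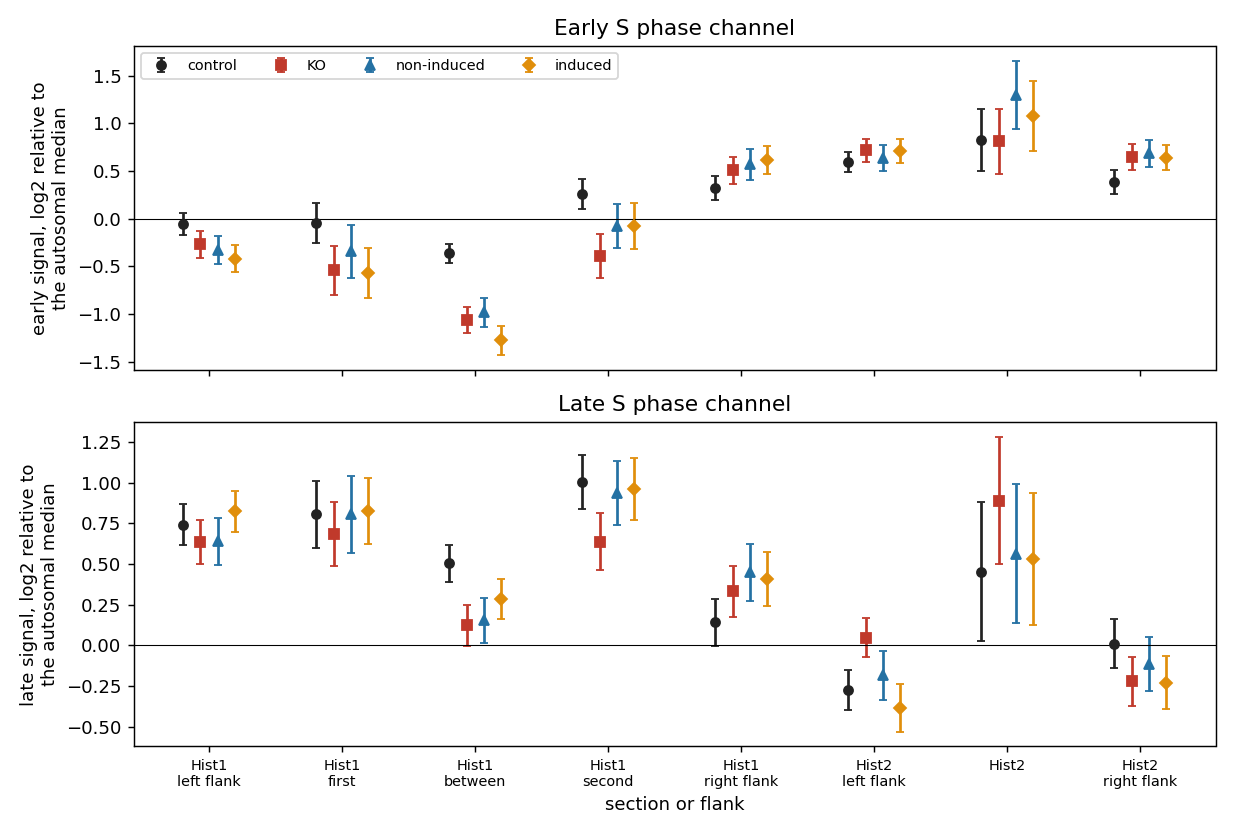
Mean signal of the early (top) and late (bottom) channel in each section and flank, as log2 relative to the autosomal median of that channel and array; points are the 4 arrays and bars are SE over probes. The section between has the lowest early signal of all sections on every array, and late signal in Hist2 is highest on the KO array at 0.89.

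Hist2 timing was 0.79 ± 0.13 (non-induced) and 0.55 ± 0.10 (induced), a difference of -0.24 ± 0.09 (SE over 18 probes) that did not reach the size for a call. The non-induced values had a lowest of -0.81, a median of 0.82 and a highest of 1.49, and the induced values had -0.75, 0.51 and 1.22, so that the arrays overlapped widely. Induced was lower in 13 of 18 probes, against 57.14% of all probes. All 9 probes within 50 kb of the centre, which are neighbours and not independent, were lower, with a mean difference of -0.34 ± 0.07. In the outer 9 probes it was -0.14 ± 0.17, with 4 lower. The windows of like timing had a median of -0.06, and Hist2 stood at percentile 15.3. Its flanks did not move with it: the left flank had 0.22 ± 0.04 and the right flank 0.02 ± 0.04. With arrays centred on the median autosomal window the Hist2 difference was -0.03, and with control in place of the non-induced array, on another slide, it turned to 0.20.

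Set side by side, the central 9 probes of Hist2 had a difference of -0.50 ± 0.07 for KO minus control and of -0.34 ± 0.07 for induced minus non-induced, where both arrays are of mutant cells. The outer 9 probes had -0.49 ± 0.17 and -0.14 ± 0.17 in the same order. These comparisons share no array. The slides differed in level: in the central probes control had 0.15 ± 0.11 and non-induced 0.88 ± 0.09, a gap larger than either difference there. Non-induced minus control was 0.44 ± 0.13 over all 18 probes, and induced minus KO was 0.69 ± 0.12. In Hist1 the corresponding values were -0.20 ± 0.04 and -0.19 ± 0.05.

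Across the 11 Hist1 windows, which are neighbours and not independent, the arrays kept much of the same profile. Pearson's r was 0.86 between non-induced and induced, 0.73 between control and KO, and 0.60 between KO and induced cells, the lowest pair. Over all windows the same pairs had 0.96, 0.84 and 0.87. The Hist1 windows had an SD of 0.18 (control) to 0.38 (induced). All windows spanned 1.81 (control) to 2.71 (induced) between the 10th and 90th percentile. A narrow range can by itself lower r, so r in Hist1 cannot be compared directly with r over all windows. The least late window was the one from 21900001 to 22100000, in the first section, on control (-0.54), KO (-0.79) and induced (-0.96) arrays, and that from 23500001 to 23700000 on the non-induced array (-0.72). The latest was that from 22300001 to 22500000, in the section between, on all 4 arrays.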

How the data were processed

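Per the labels' protocols, Cy3 marked the amplified early DNA and Cy5 the late DNA on all arrays, with no dye swap, so a dye effect is part of every timing value. The scans were quantified in Agilent Feature Extraction 11.5.1.1 per the file headers (9.1 in the submitters' processing notes), and probe positions are on mm9. The deposited intensity of each channel is background-subtracted, detrended and scaled by a linear dye factor, per the file headers. The deposited log10 ratio has late DNA on top, and the authors' value table held the same log10 values in all 180880 spots of each array. Other columns used, per the file headers, are flags of spot quality.

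Timing is the log2 ratio of the deposited processed intensity, early over late. Excluded were 6575 control spots and, by outlier flag, 154 to 447 spots an array. Repeat spots were averaged, and arrays were centred on the autosomal probe median, with no loess or quantile step. Windows of 200 kb, offset by 100 kb so that the Hist1 borders are window borders, needed 5 usable probes; 11973 on autosomes and X had them. Calls needed 0.25 of the reference array's spread (90th minus 10th percentile) and 3 SE. Hist1 was cut at 22.2 and 23.6 Mb, from general knowledge of the locus. Named regions were the clusters, sections, flanks and windows, and named probes the earliest and latest of each section and of Hist2 among all usable probes. Probes with the highest and lowest difference were named only among those well above background in both channels on all arrays. The members and lists were chosen with earlier results of these data known. The lists of other histone genes and histone mRNA factors were not analysed here, since no file used pairs probes with genes.

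The precision is limited by 1 array per group. In data simulated for each comparison, the rule recovered 89.0% of windows changed by 0.7 for KO, and 100.0% of those changed by 1.0. For induced it recovered 86.0% and 99.0%. Each simulation covered 11973 windows, and of its unchanged windows the rule called 0.212% (KO) and 0.119% (induced). These shares hold for the simulated noise only, and how often real windows are called without a change was not tested. Changes as small as the mean differences of Hist1 and Hist2 were not simulated. Alternatives covered background correction (normexp with offset 50), loess, scaling, quantile normalization, the deposited log ratio, probe filters, centring, trends, flanks, thresholds and window grids. Python 3.11.15, numpy 2.4.6, pandas 2.3.3, matplotlib 3.10.9, R 4.3.3 and limma 3.58.1 were used.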

Additional observations from a re-analysis of the deposited data

Results flagged for a closer look

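In the last window of Hist1, starting at 23700001, KO minus control was -0.40 and induced minus non-induced was 0.06, so that the comparisons went opposite ways; the difference between them was not tested. Some probes picked by the naming rule also did so, again untested, with the KO difference first and the induced difference second. Those starting at 21828411, 21798640, 23780269, 23826806 and 95993774 were picked for an extreme difference in 1 of the comparisons. For them opposite signs are in part built in by the choice. The share of all probes with opposite signs was not counted. In the first section these were the probes starting at 22017403 (0.24 and -0.16), 21828411 (0.72 and -0.0010) and 21798640 (-0.62 and 0.41). In the section between it was 22528253 (-0.85 and 0.34), which was not well above background on all arrays, and in the second section 23780269 (-1.17 and 0.34) and 23826806 (-0.29 and 0.67). In Hist2 these were 95975589 (-0.43 and 0.38), 95969241 (-0.17 and 0.06) and 95993774 (-0.17 and 0.49). Single probes of one array carry a noise of 0.39 to 0.50 between neighbours, estimated from the differences of adjacent probes. Several of the values above, such as -0.0010, are smaller than that noise.

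Outside the clusters, both channels exceeded background clearly at 106 of 122 probes of the Y chromosome with KO DNA, against 50 with control DNA.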

How the results depend on the processing

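No paired analysis was possible because each group has 1 array. Hist1 timing was below 0 on every array under all 10 alternatives, from -1.16 to -0.72 (control), -1.30 to -0.85 (KO), -1.19 to -0.82 (non-induced) and -1.46 to -0.94 (induced), and the Hist2 KO minus control difference was below 0 under all 14, from -0.94 to -0.30. The size of the Hist1 differences depended on how arrays were put on a common scale. For Hist1 as a whole, the differences that came out above 0 were within 3 SE of 0. Hist2 timing in KO, -0.15, was above 0 with window centring (0.17) and within 200 kb of the centre (0.09).

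For Hist1, KO minus control (-0.37) was -0.131 with normexp, -0.131 with arrays scaled to the same spread, 0.035 with quantile normalization, -0.18 with window centring, -0.25 with the intensity trend removed, 0.020 with the linear trend on timing removed and -0.18 against the non-induced array. Induced minus non-induced (-0.37) was -0.12, -0.030, 0.057, -0.16, -0.25 and 0.10 in the same order, and -0.56 against control. For Hist2, KO minus control (-0.50) was -0.30 with window centring and -0.94 against the non-induced array, and induced minus non-induced (-0.24) was -0.033 and 0.20. The causes were not tested.

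Hist1 windows called later in KO (3) numbered 0 with normexp, scaling, quantile normalization and window centring, and 1 at a threshold of 0.33. Those in induced cells (2) numbered 0 with the same settings, 1 with well measured probes, 4 at a threshold of 0.20 and 1 at 0.33. Over the genome, later windows in KO (2659) numbered 1729 with normexp, 1651 with scaling, 1128 with quantile normalization, 1463 with window centring and 1724 with 8 probes a window, where fewer windows were counted; earlier ones (974) numbered 1910 with window centring and 559 at 0.33. Later windows in induced cells (1397) numbered 283 with normexp, 889 with loess, 228 with scaling, 149 with quantile normalization, 715 with well measured probes, 397 with window centring, 756 at 0.33 and 2180 by size alone. Earlier ones (50) numbered 161 with loess, 1 with scaling, 11 with quantile normalization, 13 with well measured probes, 750 with window centring, 200 at 0.20 and 1 at 0.33.

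Hist1 minus its left flank was -0.063 in KO and 0.064 in induced cells with normexp, -0.60 in KO and -0.34 in non-induced cells with flanks of 0.5 Mb, and -0.48 in KO with 2 Mb. Hist1 minus its right flank stayed below 0 throughout: in control it was -0.80 with normexp, -1.26 with scaling, -1.32 with quantile normalization and -0.70 with flanks of 0.5 Mb, in KO -0.84 with normexp and -0.83 with 0.5 Mb, in non-induced -0.88 and -1.02 with the same, and in induced -0.98 with normexp, -1.34 with scaling, -1.32 with quantile normalization, -1.43 with well measured probes and -1.34 with 0.5 Mb. With Hist2 taken within 200 kb of its centre, Hist2 minus its left flank was -0.24 in induced cells, and minus its right flank -0.68 in KO and -0.065 in induced cells. Over the 72 probes of the section between that were well above background on all arrays, induced minus non-induced was -0.36, against -0.48 over all 100.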

Other observations

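The windows elsewhere in the genome closest to each section over the 4 arrays were found by root mean square distance and are given by their starts. For the first section these were chromosome 10 at 14700001, X at 93900001 and 6 at 21500001, at distances of 0.018 to 0.036. For the section between they were chromosome 1 at 99700001, 4 at 70100001 and 1 at 80900001, at 0.018 to 0.034, and for the second section chromosome 17 at 70500001, 8 at 115900001 and 10 at 104900001, at 0.028 to 0.037. For Hist2 the closest, chromosome 12 at 103900001, chromosome 1 at 127500001 and chromosome 4 at 47500001, were farther off, at 0.056 to 0.072. The chromosome 12 window had 0.32 (control), -0.12 (KO), 0.70 (non-induced) and 0.60 (induced).

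A pair of Hist1 probes was printed 5 times on each array. The probe at chr13:22155810-22155869 in the first section had -1.40 ± 0.09 (SD over 5 spots of 1 array) in control, -1.85 ± 0.20 in KO, -1.59 ± 0.15 (non-induced) and -2.00 ± 0.15 (induced). The probe at chr13:23511146-23511205 in the section between had -0.69 ± 0.16, -0.92 ± 0.18, -0.72 ± 0.78 and -1.33 ± 0.41 in the same order, with spots from -2.01 to 0.08 on the non-induced array.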
